A study of Zea mays with 18 samples.

Results

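This account covers 6 maize genes of chlorophyll synthesis and its regulation, taken by gene ID from the 39471 genes of the deposited table. They are the Golden2-like regulators golden plant2 (GRMZM2G087804, listed in RefSeq as GLK13) and glk1 (GRMZM2G026833), subunit I of magnesium chelatase (oy1, GRMZM2G419806), its subunit H (CHLH, GRMZM2G323024) and a pair of protochlorophyllide reductases (POR), GRMZM2G036455 and GRMZM2G073351. RNA was sequenced from the third leaf of seedlings of the F1 hybrid An'nong 591, a cross of the maternal line CB25 with the paternal line CM1. Control seedlings (CF1) stayed at 28 °C by day and 23 °C by night, and heat-treated seedlings (F1) were kept at 42 °C and 35 °C for 2 d once the third leaf had expanded. Each group had 3 biological replicates, and these 6 of the 18 libraries of the series were analysed here. All plants of both groups share 1 hybrid genotype, so nothing is said of other maize lines. A library held between 12266758 and 14643512 counts on genes.

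Chlorophyll is made in plastids from glutamate through a chain of porphyrins. Magnesium chelatase, an enzyme of the subunits I, D and H, inserts magnesium into protoporphyrin IX and so commits the chain to chlorophyll, while subunit H binds the porphyrin and subunit I is an ATPase that drives the insertion. Protochlorophyllide reductase carries out the light-dependent step near the end of the chain that turns seedlings green. Golden2-like proteins are transcription factors that activate genes of chlorophyll synthesis and of the light-harvesting antenna. In the C4 leaf of maize, golden plant2 was found through mutants with pale bundle sheath cells, and its relative glk1 is known for its transcripts in mesophyll cells.

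All 6 genes were down-regulated in F1. The fall was 20.7-fold for CHLH, 8.26-fold for POR GRMZM2G073351, 7.12-fold for oy1, 5.41-fold for glk1, 3.29-fold for golden plant2 and 2.67-fold for POR GRMZM2G036455. These are fold changes of edgeR's quasi-likelihood test on the counts with TMM factors, in which calls needed a 2-fold change or more and a Benjamini-Hochberg adjusted p no higher than 0.05. Of the 20622 expressed genes tested (those averaging 1 FPKM or more in either group), 19.9% were called lower and 24.1% higher in F1 by the same rule. The log2 fold changes of the 6 genes had a median of -2.63, against 0.05 over all genes tested. A leaf with fewer cells of a type and a leaf with less RNA per cell cannot be told apart in such bulk libraries.

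The scaling between libraries decided 2 of the 6 calls. When libraries were scaled by their totals alone, without TMM factors, the median log2 fold change over all genes moved from 0.05 to 0.85, with 9278 genes called higher and 1900 (9.21%) called lower, against 4963 and 4102 with TMM factors. CHLH, POR GRMZM2G073351, oy1 and glk1 were still called lower on that scale. The log2 fold changes of golden plant2 (-0.92, standard error (SE) 0.10) and POR GRMZM2G036455 (-0.62, SE 0.15) were negative but fell short of a 2-fold change there. The deposited FPKM are relative to library totals too, and in them every F1 library lay below every CF1 library for 6 of the 6 genes, as it did for 16.2% of all genes tested.

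**Figure D1:**
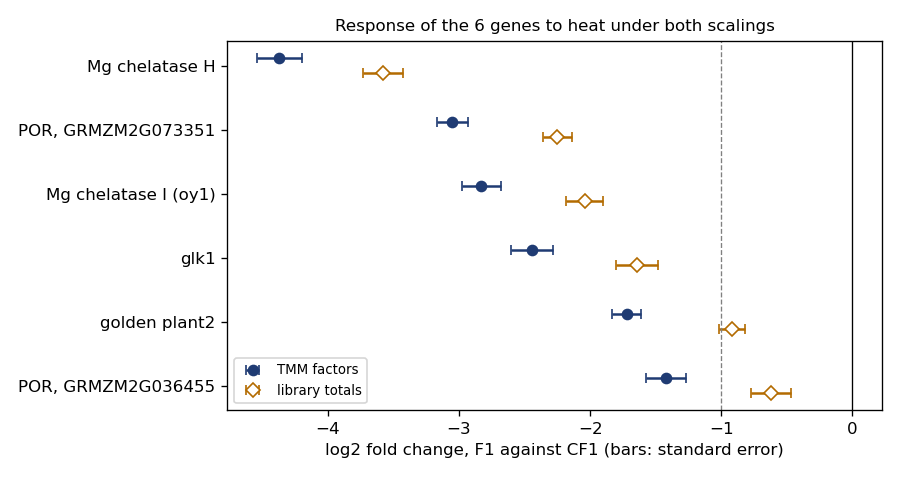
Log2 fold change of the 6 genes in F1 against CF1 (x axis, bars are standard errors, n = 3 libraries per group) with TMM factors (filled circles) and with library totals (open diamonds), and the 2-fold threshold as a dashed line. POR is protochlorophyllide reductase. All values lie below 0, and with library totals golden plant2 (-0.92) and POR GRMZM2G036455 (-0.62) lie to the right of the threshold.

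Among the regulators, golden plant2 had a level of 29.73, 33.73 and 33.17 FPKM in the CF1 libraries and of 16.99, 18.27 and 15.89 FPKM in the F1 libraries. The spread within each group was small beside the gap between them, with means of 32.2 ± 2.17 and 17.1 ± 1.19 FPKM (SD, n = 3). Its log2 fold change was -1.72 (SE 0.11, edgeR adjusted p = 4.43e-07). Between 588 and 1151 counts per library stood behind these values. In CF1, 89.4% of the expressed genes had a lower mean FPKM than golden plant2, and in F1 68.5% did.

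The level of glk1 was higher than that of golden plant2 in each control library, at 46.05, 61.88 and 45.85 FPKM. In F1 it was 13.36, 17.93 and 18.03 FPKM. Replicate 2 stood above the other CF1 libraries and replicate 1 below the other F1 libraries, and the groups did not overlap. The mean went from 51.3 ± 9.20 to 16.4 ± 2.67 FPKM (SD, n = 3), and its log2 fold change was -2.44 (SE 0.16, edgeR adjusted p = 6.19e-07). The share of expressed genes with a lower mean was 93.7% in CF1 and 67.3% in F1.

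The balance between the regulators was compared within libraries. The ratio of the FPKM of golden plant2 to that of glk1 within a library does not depend on the scaling between libraries. It was 0.646, 0.545 and 0.723 in CF1 and 1.27, 1.02 and 0.881 in F1. Every F1 ratio was above every CF1 ratio, and on the log2 scale the mean was higher by 0.72, from -0.66 ± 0.205 to 0.06 ± 0.266 (SD, n = 3). The exact two-sided permutation test gave p = 0.1, the smallest value possible with groups of 3, and 0.1 after adjustment over the 3 ratios tested. In F1 the FPKM ranges of both genes overlapped, so an order between them in heat-treated leaves was not resolved.

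Magnesium chelatase was represented by both subunits on the list. CHLH was the most abundant of the 6 transcripts, with 1229.21, 1240.61 and 1059.53 FPKM in CF1, a level above that of 99.7% of the expressed genes. In the F1 libraries it was 103.91, 89.35 and 102.23 FPKM. The F1 values lay close together and far under the lowest CF1 library. The mean changed from 1176 ± 101 to 98.5 ± 7.97 FPKM (SD, n = 3), and its log2 fold change was -4.37 (SE 0.17, edgeR adjusted p = 3.02e-08). Only 1.18% of the genes tested had a lower log2 fold change. With 59567 to 80259 counts in CF1, CHLH alone made up 79.1 ± 0.569% (SD, n = 3) of the counts of the 6 genes, and in F1 55.4 ± 2.12%.

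The gene oy1, known from the yellow-green Oil yellow1 mutants, encodes the ATPase subunit. Its level was 110.7, 109.49 and 93.48 FPKM in CF1 and 22.19, 24.05 and 30.18 FPKM in F1. Replicate 3 was the lowest of the CF1 libraries and the highest of the F1 libraries, and the groups stayed apart. The mean fell from 105 ± 9.61 to 25.5 ± 4.18 FPKM (SD, n = 3), a log2 fold change of -2.83 (SE 0.15, edgeR adjusted p = 1.32e-07).

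The subunits of magnesium chelatase were compared in the same way. Per length, the level of CHLH was 11.1, 11.3 and 11.3 times that of oy1 in the CF1 libraries and 4.68, 3.72 and 3.39 times in the F1 libraries. The control ratios were nearly equal among replicates, with a log2 ratio of 3.49 ± 0.017 (SD, n = 3), while the F1 ratios averaged 1.96 ± 0.241. The difference of -1.53 on the log2 scale, a factor of 2.89, was larger than the spread within either group, and no F1 ratio reached a CF1 ratio (exact two-sided permutation test, p = 0.1, adjusted p = 0.1 over 3 ratios).

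The protochlorophyllide reductases differed in level. GRMZM2G073351, for which RefSeq gives the symbol por, had 313.19, 291.17 and 278.87 FPKM in CF1 and 64.29, 61.15 and 60.45 FPKM in F1. Both groups were tight, with means of 294 ± 17.4 and 62.0 ± 2.05 FPKM (SD, n = 3). The log2 fold change was -3.05 (SE 0.12, edgeR adjusted p = 3.43e-08).

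The copy GRMZM2G036455 was expressed at a far lower level, 23.09, 34.33 and 25.07 FPKM in CF1 and 18.58, 17.95 and 17.12 FPKM in F1. Replicate 2 of CF1 stood above the rest, and all F1 libraries lay below the lowest CF1 library. It had the smallest log2 fold change of the 6 genes in size, -1.42 (SE 0.15, edgeR adjusted p = 1.34e-05), with 378 to 699 counts per library. Its means were 27.5 ± 6.0 and 17.9 ± 0.732 FPKM (SD, n = 3).

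Within a library, the level of GRMZM2G073351 was 13.6, 8.48 and 11.1 times that of GRMZM2G036455 in CF1 and 3.46, 3.41 and 3.53 times in F1. The F1 ratios were nearly identical and all below the CF1 ratios. On the log2 scale the ratio went from 3.44 ± 0.340 to 1.79 ± 0.0259 (SD, n = 3), a difference of -1.65 (exact two-sided permutation test, p = 0.1, adjusted p = 0.1 over 3 ratios). The summed FPKM of both reductases was 322 ± 16.4 in CF1 and 79.9 ± 2.73 in F1, of which GRMZM2G073351 took 91.5 ± 1.82% and 77.6 ± 0.30% (SD, n = 3). How reads shared between the copies were counted was not examined here.

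**Figure D2:**
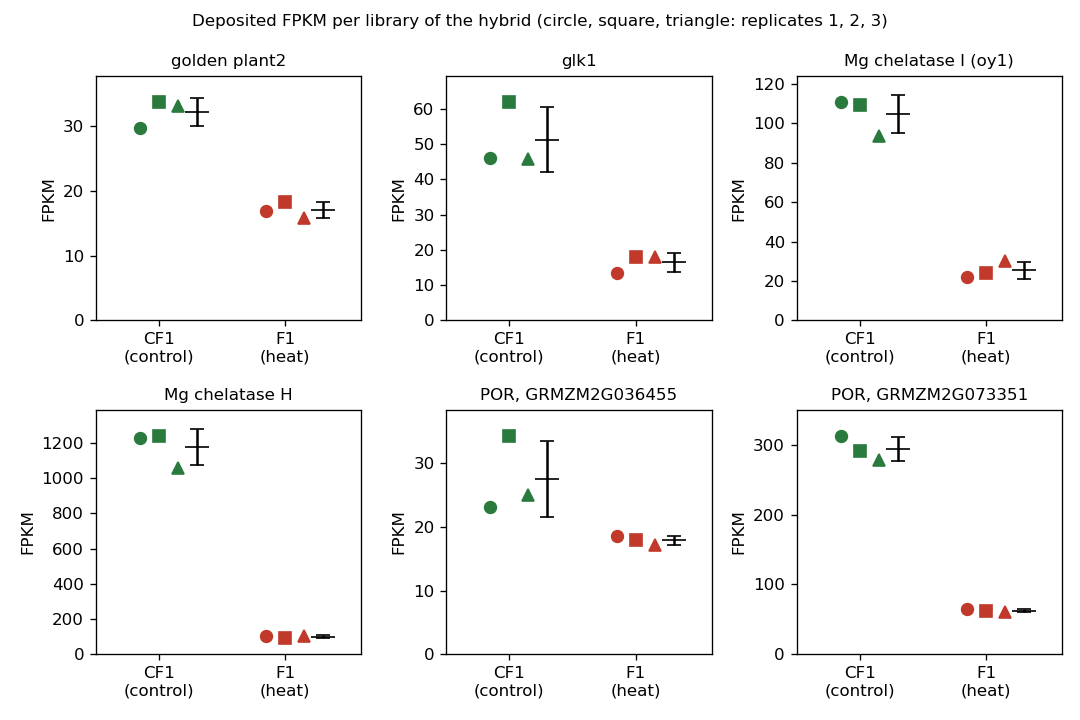
Deposited FPKM (y axis, from 0) of each of the 6 genes in the 3 CF1 libraries (green) and the 3 F1 libraries (red), with marker shapes for replicates 1 to 3 and the mean ± SD in black. In every panel the F1 libraries lie below the CF1 libraries, by the widest margin for CHLH (1176 against 98.5 FPKM) and by the narrowest for POR GRMZM2G036455 (27.5 against 17.9 FPKM).

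**Figure D3:**
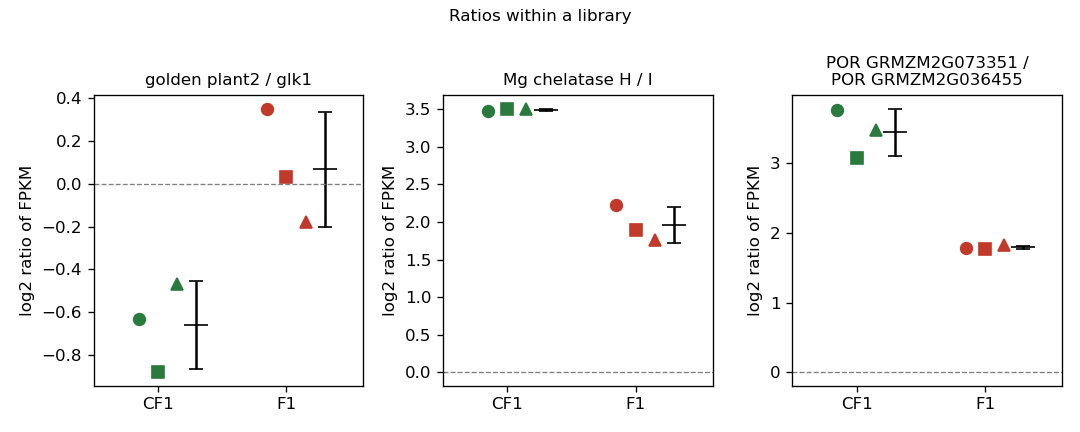
Log2 ratio of FPKM within each library (y axis) for golden plant2 to glk1, CHLH to oy1 and POR GRMZM2G073351 to POR GRMZM2G036455, with CF1 in green, F1 in red, marker shapes for replicates 1 to 3 and the mean ± SD in black. The groups do not overlap in any panel, and the mean moves by 0.72, -1.53 and -1.65 from CF1 to F1.

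Ordered by mean FPKM, the CF1 libraries gave CHLH, POR GRMZM2G073351, oy1, glk1, golden plant2 and POR GRMZM2G036455. The ranges of neighbours in that order were separate except those of golden plant2 and POR GRMZM2G036455, which overlapped. In F1 the upper 3 places were the same, from 98.5 FPKM for CHLH to 25.5 FPKM for oy1. The other genes lay between 13.36 and 18.58 FPKM, and their ranges overlapped. Together the 6 genes took 0.681 ± 0.0537% of the counts in CF1 and 0.0814 ± 0.00367% in F1 (SD, n = 3 libraries, exact two-sided permutation test, p = 0.1).

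A list of other synthesis genes of the tetrapyrrole chain, matched by RefSeq symbol, held 6 genes. Of these, 4 were called lower in F1, 0 were called higher and 2 were not called. The gene elm1, on the heme branch, was listed with light signalling and is not counted here. Over all genes tested, 19.9% were called lower. These other synthesis genes had a median log2 fold change of -1.64. The gene gtr1 (GRMZM2G177412), named for glutamyl-tRNA reductase, the first enzyme committed to porphyrins, had 768.12, 802.39 and 579.19 FPKM in CF1 and 88.23, 91.04 and 85.08 FPKM in F1. Its log2 fold change of -3.82 (SE 0.16, edgeR adjusted p = 4.28e-08) lay between those of CHLH and POR GRMZM2G073351.

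The listed enzyme genes between that first step and magnesium chelatase, which did not cover every step, showed smaller changes. The uroporphyrinogen decarboxylase gene les22 (GRMZM2G044074), whose loss gives lesion mimic plants, went from 54.8 ± 0.264 to 23.8 ± 2.74 FPKM (SD, n = 3), and its log2 fold change was -2.0 (SE 0.12). The protoporphyrinogen oxidase genes prpo1 (GRMZM2G039396) and prpo2 (GRMZM2G364901), which act on the last step before the chelatase, had log2 fold changes of -1.56 (SE 0.15) and -1.71 (SE 0.13). With library totals these were -0.77 and -0.92, under the threshold. That left 2 of the 6 other synthesis genes called lower, beside 9.21% of all genes tested.

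The genes that were not called were cpx2 and DVR. The coproporphyrinogen oxidase gene cpx2 (GRMZM2G032282) had 22.48, 18.03 and 24.03 FPKM in CF1 and 39.10, 43.38 and 38.04 FPKM in F1. Its FPKM was higher in every F1 library, but its log2 fold change was 0.10 (SE 0.14, edgeR adjusted p = 0.533) with TMM factors and 0.90 with library totals. The divinyl reductase gene DVR (GRMZM2G063048) had 43.9 ± 7.29 FPKM in CF1 and 40.4 ± 0.977 FPKM in F1 (SD, n = 3), and its log2 fold change was -0.92 (SE 0.12). With library totals it was -0.12, and the FPKM ranges of the groups overlapped. The log2 fold change of DVR crossed the threshold without replicate 1 of CF1 (-1.02) and was -0.79 without replicate 2 of CF1.

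The 2 listed genes of chlorophyll breakdown that were expressed had the opposite sign. Of 4 gene IDs listed, 2 passed the expression filter and both were called higher, under both scalings. Over all genes tested, 24.1% were called higher with TMM factors, and 9278 of 20622 with library totals. The gene lls1 (GRMZM2G339563), which encodes pheophorbide a oxygenase, the enzyme that opens the porphyrin ring, had 51.78, 43.2 and 63.14 FPKM in CF1 and 259.87, 311.61 and 192.89 FPKM in F1. Its log2 fold change was 1.47 (SE 0.20, edgeR adjusted p = 8.56e-05). The stay-green gene SGR2 (GRMZM2G091837) had 1.21, 0.56 and 1.75 FPKM in CF1 and 11.93, 10.56 and 7.97 FPKM in F1. It rose by 2.32 on the log2 scale (SE 0.33, edgeR adjusted p = 1.29e-04), from 12 to 35 counts per library to 186 to 283. Stay-green proteins remove magnesium from chlorophyll. RefSeq gives the symbol SGR1 to a pair of IDs, GRMZM2G103881 with at most 11 counts in any library and GRMZM2G379563 with 0 counts in all 6.

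The light-harvesting antenna, whose proteins bind most of the chlorophyll and whose genes Golden2-like factors activate, was called lower for 7 of its 7 listed genes, with a median log2 fold change of -4.59. Over all genes tested, 19.9% were called lower. With library totals the same 7 were called lower, beside 9.21% of all genes tested, and their median was -3.79. The summed FPKM of the 7 genes lay between 18038 and 27096 in the CF1 libraries and between 1444 and 1699 in the F1 libraries. Among these 7, changes were largest for cab-m1 (-9.29), cab48 (-8.69) and cab-m9 (-5.06), and smallest in size for lhcb4 (-3.74), Cab-m7 (-3.75) and lhcb6 (-4.25). The list was not complete. The gene cp29 (GRMZM2G033885), named for an antenna protein, was outside it and had a smaller change of -2.99 (SE 0.15). The gene cab-m1 ranged from 5358.11 to 9914.54 FPKM in CF1 and from 6.70 to 32.13 FPKM in F1.

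Other genes with a G2-like symbol were looked at beside golden plant2 and glk1. The symbol covers a wider family of DNA-binding proteins, including members outside chloroplast development. Of 8 such genes, 5 passed the filter, 2 were called lower and 0 higher, with a median log2 fold change of -0.71, beside 19.9% called lower over all genes tested. Whether they differed from golden plant2 and glk1 was not tested, and both calls were kept with library totals. GLK5 (GRMZM2G016370) had 9.35, 3.98 and 10.81 FPKM in CF1 and 3.20, 2.98 and 2.96 FPKM in F1, a log2 fold change of -2.20 (SE 0.33). GLK52 (GRMZM2G124495), with 51 to 89 counts per library in CF1 and 3 to 23 in F1, had -3.75 (SE 0.55). The 23 counts were in replicate 2 of F1, and without that library the log2 fold change of GLK52 was -5.2, while limma on log2(scaled FPKM + 1) gave -1.9.

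GLK15 (-0.71), GLK44 (-0.61) and GLK17 (-0.36), the last also named PHR1 after a regulator of the phosphate response, were not called. With library totals their log2 fold changes were 0.09, 0.18 and 0.44, so their direction depended on the scaling. GLK23, GLK41 and GLK47 had at most 3 counts in any library.

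**Figure D4:**
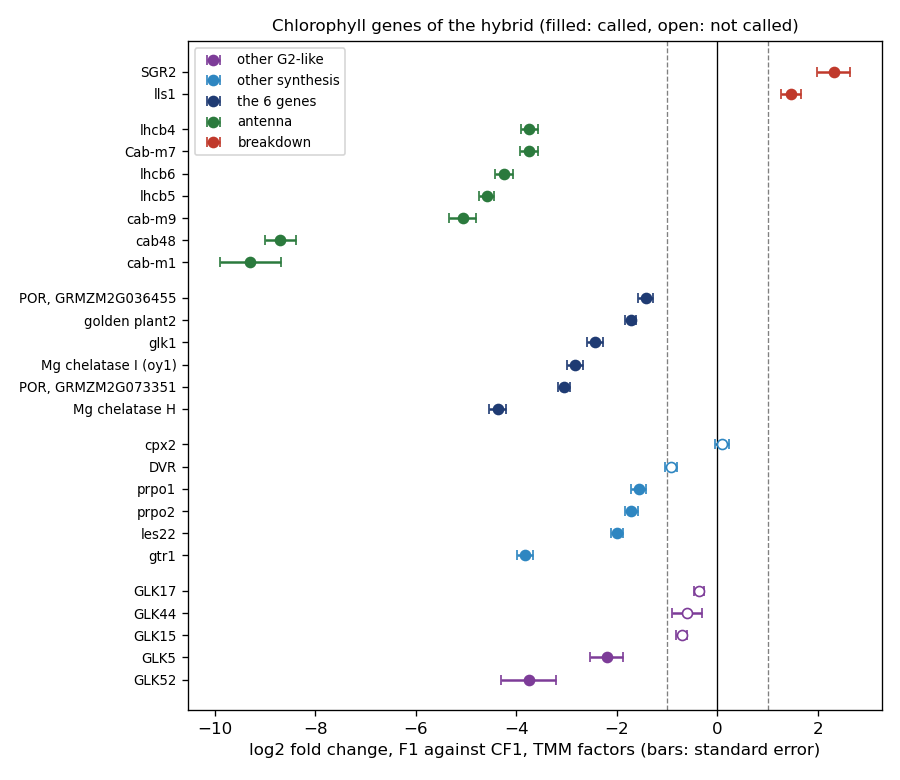
Log2 fold change in F1 against CF1 with TMM factors (x axis, bars are standard errors, n = 3 libraries per group) of the 6 genes, other synthesis genes, antenna genes, breakdown genes and other G2-like genes that passed the expression filter. Filled points were called and open points were not, and dashed lines mark a 2-fold change. The breakdown genes lls1 (1.47) and SGR2 (2.32) stand to the right of the others, and the listed antenna genes (-9.29 to -3.74) reach farthest to the left.

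Most of the listed leaf cell type markers were called lower in F1 with TMM factors, beside 19.9% of all genes tested. Of the 3 mesophyll markers of C4 photosynthesis (pep1, Ppdk1 and mdh6), 3 were called lower, and their summed FPKM was 16243 to 18504 in CF1 and 4963 to 5907 in F1. The 3 bundle sheath markers (me3, ssu1 and the rbcS gene GRMZM2G113033) were also called lower, with sums of 8417 to 9367 and 2243 to 2971 FPKM. With library totals 2 of 3 were called in each list, mdh6 (-0.81) and me3 (-0.99) falling short. On that scale 9.21% of all genes tested were called lower. No marker was at 0 in any library. Of the epidermal markers, gl1 was called lower (-2.15) and ocl1 was not (-0.33, and 0.46 with library totals), and the phloem marker sut1 was called lower (-1.55, and -0.75 with library totals, where it was not called). The part of these markers in the results for golden plant2, glk1 and the enzymes was not tested.

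The genes closest in pattern were found by the root mean square difference of log2 TMM-scaled CPM (counts scaled to a common library size), each centred on its mean over the 6 libraries, among genes with a RefSeq symbol. The measure is dominated by the gap between the groups. For golden plant2 they were CNR08 (0.104), ANT-G1 (0.106) and sir (0.107), although 31 expressed genes without such a symbol were closer than CNR08. For glk1 they were HST (0.151), sut4 (0.154) and pip2c (0.183). Neither regulator was among the closest of the other, at 0.408.

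For CHLH the closest were the antenna gene lhcb5 (0.114), pDCT2 (0.137) and the antenna gene lhcb6, also named CP24 (0.168). The gene cp29 (GRMZM2G033885) was the closest to POR GRMZM2G073351 (0.0893), ahead of bHLH172 (0.103) and lcyE (0.109). It was also among the closest to oy1 (0.143), with adk1 (0.0782) and HST (0.15). POR GRMZM2G036455 was closest to NRH2b (0.102), NRH1a (0.117) and bZIP83 (0.137). Among the 6 genes themselves, the closest pair was oy1 and POR GRMZM2G073351 (0.192) and the most distant was CHLH and POR GRMZM2G036455 (1.5).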

How the data were processed

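The 6 hybrid libraries were matched to columns by name. Another 24 per-sample columns, with names that match no label, were not used here. Per the study's methods, the authors filtered reads, aligned them to B73 RefGen_v3 with HISAT 2.0.1 and counted them per gene with HTSeq 0.6.1. They deposited raw counts, the exonic length and FPKM. FPKM is the count relative to exonic length and library total, and recomputing it matched 100% of values within rounding. Reads shared between gene copies and strand were not examined.

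Counts were fitted with edgeR 4.0.16 (TMM, glmQLFit, glmQLFTest, Benjamini-Hochberg over the 20622 genes averaging 1 FPKM or more in either group). The fit was tested on simulated data in which as many genes rose as fell. That run did not test the scaling between groups. Standard errors are the absolute log2 fold change over the square root of F. Within-library ratios were compared by exact permutation tests (SciPy 1.17.1). The alternatives were other scalings, no filter, DESeq2 1.42.0, limma 3.58.1, a replicate block and leaving out each library.

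The genes, lists and tests were chosen with earlier results of these data known. Lists of pathway steps were filled from RefSeq symbols (18908 IDs matched in assembly Zm-B73-REFERENCE-NAM-5.0, from which only names were taken), since name patterns set first had nothing to match. All 6 genes, lists of up to 6 expressed genes in full, otherwise the 3 highest and 3 lowest log2 fold changes, and the 3 nearest patterns per gene were named. The markers pck1, gl8 and carbonic anhydrase were not matched. Most other synthesis steps, among them subunit D, GUN4 and steps around the reductases other than that of DVR, had no symbol to match. No sequence is shown.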

Additional observations from a re-analysis of the deposited data

How the results depend on the processing

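Of 78 refits of the 6 genes (13 alternatives each), 76 kept the direction and the call. The exceptions were golden plant2 (-0.92) and POR GRMZM2G036455 (-0.62) when library totals replaced the TMM factors, which also left 2 of the 4 other synthesis genes called. With each library left out in turn, 6 of the 6 genes, 7 antenna, 2 breakdown and 2 other G2-like genes were called each time, and 4 to 5 other synthesis genes. Over all genes 8807 to 9112 were called, against 9065. The log2 fold changes then ran from -1.78 to -1.67 for golden plant2, -2.52 to -2.29 for glk1, -2.99 to -2.74 for oy1, -4.42 to -4.30 for CHLH, -1.54 to -1.24 for POR GRMZM2G036455 and -3.07 to -3.01 for POR GRMZM2G073351. The differences of log2 ratios ran from 0.58 to 0.84 (golden plant2 to glk1), -1.67 to -1.43 (CHLH to oy1) and -1.83 to -1.49 (the reductases).

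Directions reversed for genes that were not called: cpx2 without replicate 2 of CF1 (-0.02, and up to 0.21 with another library left out), and GLK15 (0.09), GLK17 (0.44), GLK44 (0.18) and ocl1 (0.46) with library totals. Replicate numbers did not pair the samples: the correlation of deviations between same-numbered libraries was 0.0326, -0.0175 and 0.0167. With the replicate block 8948 genes were called, 6 of the 6 genes among them.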

Other observations

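A further list held 3 genes of light signalling, of which 2 passed the expression filter and 0 were called with TMM factors. By the same rule, 19.9% of all genes tested were called lower and 24.1% higher. In Arabidopsis, phytochrome-interacting factors hold back chlorophyll synthesis in the dark. PIF5 (GRMZM2G165042) had 18.5 ± 2.04 FPKM in CF1 and 16.7 ± 0.790 FPKM in F1 (SD, n = 3), and the ranges overlapped. Its log2 fold change was -0.95 (SE 0.11) with TMM factors, under the threshold, and -0.15 with library totals. With TMM factors it crossed the threshold without replicate 3 of CF1 (-1.01). PIF4 (GRMZM5G865967) had 7 to 22 counts per library in CF1 and 0 to 3 in F1 and did not pass the expression filter. The gene elm1 (GRMZM5G861678), which encodes phytochromobilin synthase on the heme branch of the same porphyrin chain, had 8.46 ± 1.29 FPKM in CF1 and 17.3 ± 0.455 FPKM in F1 (SD, n = 3). Its log2 fold change was 0.23 (SE 0.13, edgeR adjusted p = 0.125) with TMM factors, where it was not called, and 1.03 with library totals, where it was called higher. On that scale the median over all genes tested was 0.85, and 9278 of 20622 were called higher.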
